A study of Schizosaccharomyces pombe with 4 samples.

Results

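The DNA of whole-cell extracts was measured in 4 cultures of the fission yeast Schizosaccharomyces pombe held in S phase, 1 each of clr3D, IRD2, the double mutant IRD2 clr3D, and wild type (WT). It is the Cy3 channel of 2-colour tiling arrays and was taken for 4 of the 4 samples of the series, without the other channel, which holds DNA bound by a FLAG-tagged histone H3. All 4 cultures carried the plasmid pINV1-H3.2-FLAG and were grown without leucine in 8% glucose. They received 15 mM hydroxyurea for 4 h and then spent 2 h in 4% sucrose with the drug still present. Fixation in 1% formaldehyde lasted 20 min, DNA was sheared to fragments of 400 to 600 bp, and it was amplified by PCR from random primers before labelling. clr3D lacks Clr3. The labels do not say what IRD2 is, and no tile lay in the clr3 gene (0 tiles), so the clr3D label could not be checked on these values.

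Hydroxyurea starves cells of deoxyribonucleotides and stalls replication forks early in S phase, so DNA that has replicated may be present in more copies than DNA that has not. Clr3 removes acetyl groups from histones in heterochromatin, the silent chromatin that in fission yeast covers the outer repeats of the centromeres, the silent mating-type region and the chromosome ends. Whole-cell extract DNA serves as the input in a chromatin immunoprecipitation, and its signal also varies with how well each sequence is released, amplified and bound by its probe. Fewer copies of a sequence in the cells and poorer recovery of it in the extract cannot be told apart here.

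Each array held 43993 tiles of 60 bases at steps of 50 bases: 41974 on parts of chromosome II, 1096 on chromosome III, 99 on chromosome I and 824 on a separate contig of 41210 bp that carries the mating-type region. A level below is the log2 Cy3 signal minus the median of its array, and a difference is the level in a mutant minus the level in WT. In the order clr3D, IRD2, IRD2 clr3D and WT, the array medians were 1146, 1057, 1069 and 1114 units, and between 43863 and 43912 tiles were well above background. Each genotype has 1 array, so no difference has a replicate check, and SDs given beside medians are between tiles of 1 stretch of DNA. The nearest measure of spot error came from 360 pairs of matching tiles on the contig and on chromosome II, whose single-spot SD was 0.19 to 0.25 for a level and 0.14 to 0.16 for a difference. Bins, genes and windows were counted as called when their difference was past 0.3 in size.

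In both IRD2 and IRD2 clr3D some tiles of the mating-type region were not well above background. Tiles of the contig and of chromosome II read in part the same DNA there. In the IRD2 and IRD2 clr3D arrays alike, 17 tiles were lower than in WT by more than 4 log2 units. Of the 17, 9 were on the contig and 8 on chromosome II. They were the same tiles in both arrays, and none of the 17 was well above background there, while all 17 were in WT. Set against the lowest level well above background on the same array, each was at least 63.4-fold lower in IRD2 and at least 46.3-fold lower in IRD2 clr3D than in WT. In clr3D no tile passed that limit (0 of 43993), and those 17 tiles had differences from WT of -0.80 to -0.45.

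The extract signal along the chromosome II arms had nearly the same profile in the 4 strains. Over the 396 arm bins of 5 kb the SD of the level was 0.39 in clr3D, 0.36 in IRD2 and 0.33 in IRD2 clr3D, against 0.39 in WT, where levels ran between -1.84 and 1.73. Across bins the level correlated with that of WT at r = 0.98, 0.98 and 0.97 in the same order. The bins share probe sequences, so these correlations describe the probes as much as the DNA. Neighbouring arm bins of WT were barely alike (r = 0.09 over 393 pairs, and 0.17 after a loess correction for GC content), and their level correlated with GC content at r = 0.28.

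The highest arm bins of WT held retrotransposons, and the lowest held hsp16. The bin of the retrotransposon Tf2-9 stood highest, at 1.60 in clr3D, 1.64 in IRD2, 1.74 in IRD2 clr3D and 1.73 in WT, followed by the bin of Tf2-10 (0.95 in WT). The lowest was the bin of hsp16, a small heat shock protein gene, at -1.68 in clr3D, -1.57 in IRD2, -1.48 in IRD2 clr3D and -1.84 in WT. The bin of cyr1, the adenylate cyclase gene, was also among the 5 lowest (-1.22 in WT). Tf2 elements exist in many copies, so their tiles read all copies together.

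The differences between strains varied more smoothly along the arms than the levels did. Neighbouring arm bins correlated at r = 0.47 in clr3D minus WT, 0.32 in IRD2 minus WT and 0.24 in IRD2 clr3D minus WT, over 393 pairs each. The SD over arm bins was small, at 0.07, 0.08 and 0.11 in the same order. The difference due to clr3 deletion can also be taken without WT, as IRD2 clr3D minus IRD2, from arrays that clr3D minus WT does not use. The 2 differences correlated across the 421 chromosome II bins at r = 0.62, and at r = 0.32 over the 396 arm bins. For IRD2, the pair IRD2 minus WT and IRD2 clr3D minus clr3D gave r = 0.49 over all bins and 0.54 over the arm bins. Probe sequence is shared between the pairs.

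**Figure D1:**
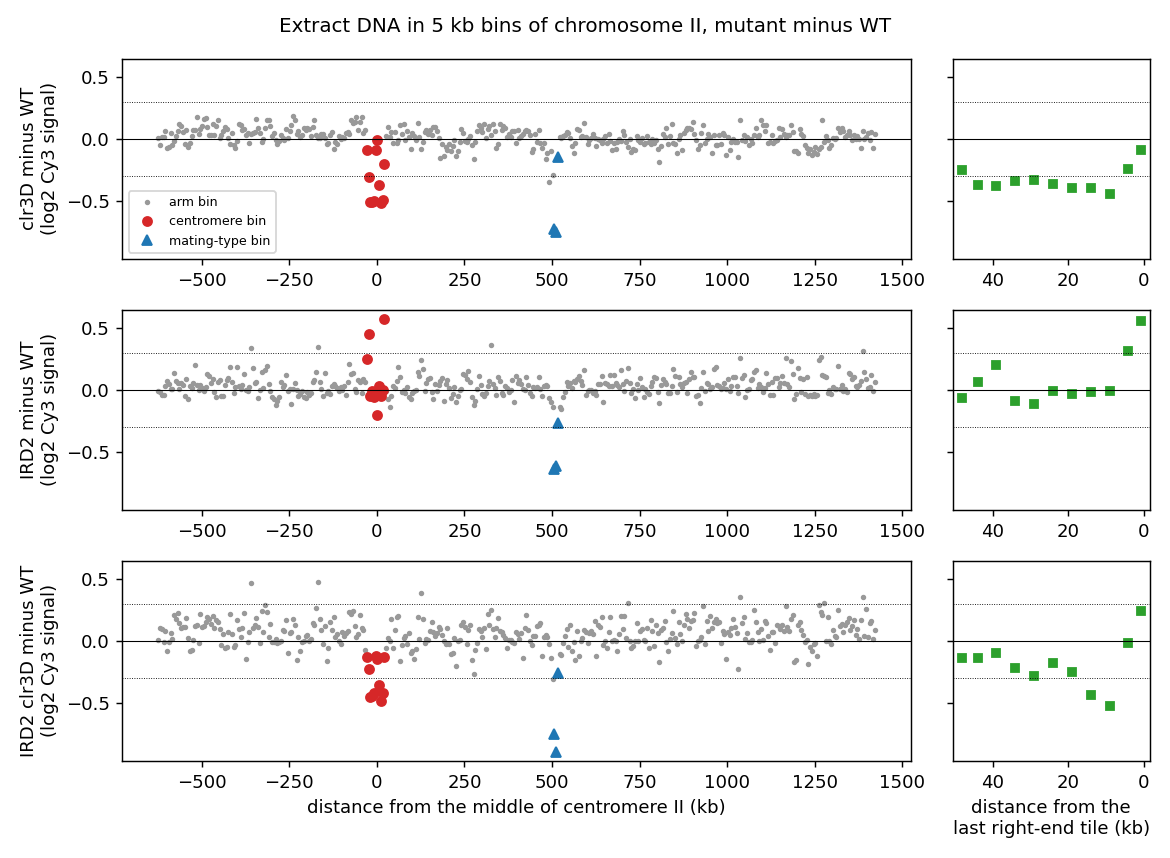
Difference from WT in log2 Cy3 signal for each 5 kb bin of chromosome II in clr3D (top), IRD2 (middle) and IRD2 clr3D (bottom), against distance in kb from the middle of the centromere (left panels) and from the last tile of the right end (right panels); dotted lines mark 0.3 and -0.3. In clr3D the bins past a line lie mainly in the mating-type region, the centromere and the right end, and in IRD2 clr3D 7 arm bins lie above the upper line.

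In clr3D the extract held less signal over heterochromatin than in WT. Lower by more than 0.3 were 18 of 421 bins (4.28%), of which 7 of 11 bins were in the centromere, 2 of 3 in the mating-type region, 8 of 11 at the right end and 1 of 396 on the arms. The arm bin among them holds mat1-Mc, a gene of the expressed mating-type cassette. No bin was higher by more than 0.3 (0 of 421, 0%). In IRD2 8 of 421 bins were higher (1.90%), 4 on the arms, 2 at the centromere borders and 2 at the outermost right end, and 2 of 421 were lower (0.475%), both in the mating-type region. Those 2 bins contain the lost tiles, and none was lower over tiles well above background in all arrays. In IRD2 clr3D 11 of 421 bins were lower (2.61%), 6 in the centromere, 2 in the mating-type region, 2 at the right end and 1 on the arms, while 7 of 421 were higher (1.66%), all on the arms. With tiles that match a single place, which leave out most repeats, 3 bins were lower in clr3D and 3 in IRD2 clr3D.

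An additive limma fit used all 4 arrays to estimate the effect of clr3 loss and of IRD2 on each of 442 bins. It has 1 residual degree of freedom. Its standard error, 0.061 for every bin, measures the departure from additivity among these arrays and not the spread between cultures. That error was pooled over all bins with infinite prior degrees of freedom, so the p-values treat it as known exactly and can be far too small. For clr3 loss 29 of 442 bins were lower at a limma adjusted p under 0.05 (6.56%). Of these, 9 lay in the centromere, 7 in the mating-type region and its contig and 10 at the right end. A further 1 lay on chromosome III beyond the ribosomal DNA and 2 on the arms. Contig and chromosome II tiles read in part the same DNA, so the 7 are not 7 separate places. Another 5 bins were higher (1.13%), all in the ribosomal DNA, with effects of 0.41 to 0.56 (largest limma adjusted p = 1.17e-09). For IRD2 37 of 442 bins were higher (8.37%), 26 of them on the arms with effects of 0.18 to 0.41 and 5 in the ribosomal DNA with effects of 0.48 to 0.58. The 6 bins lower with IRD2 (1.36%) lay on the contig or in and beside the mating-type region. Of these, the bin chrII:2140011-2145020 (-0.19) lies almost wholly past the region's right bound at 2140119. With a loess correction for level the fit called 13 bins lower for clr3 loss and 11 higher for IRD2. With tiles of a single place it called 7 lower and 0 higher for clr3 loss (35 higher at an unadjusted limma p under 0.05). Those tiles cover 412 bins and leave out the contig and the ribosomal DNA, so the calls made there could not recur.

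**Figure D2:**
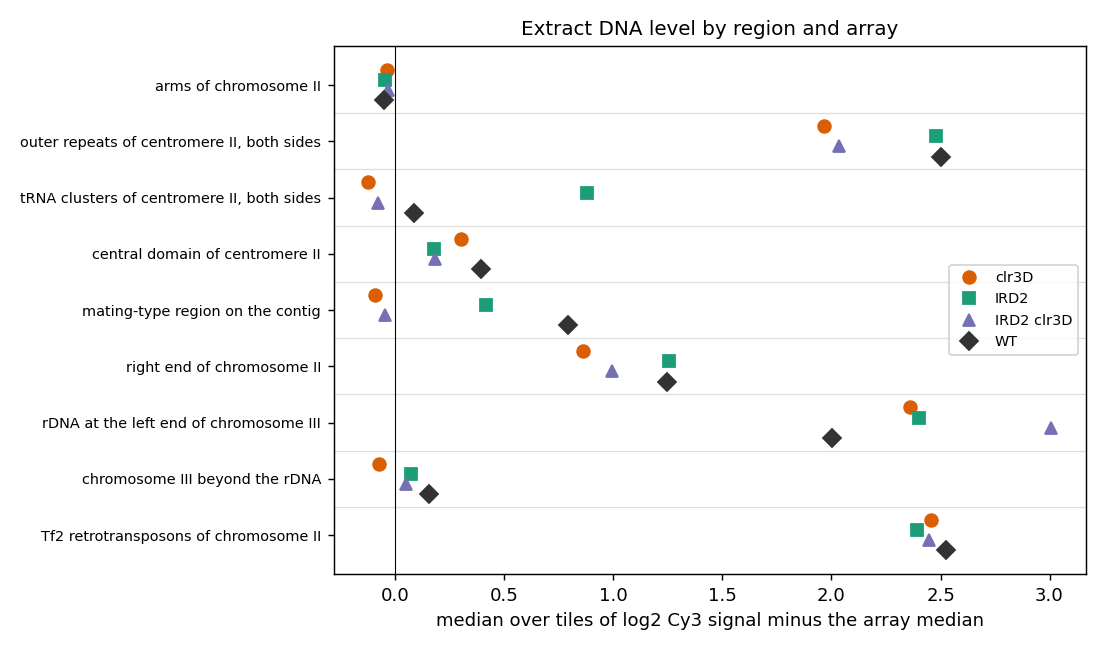
Median over tiles of the log2 Cy3 signal minus the array median for 9 regions (rows), with 1 symbol per array: clr3D, IRD2, IRD2 clr3D and WT. clr3D and IRD2 clr3D stand left of WT at the right end, the mating-type region and the outer repeats, IRD2 stands alone to the right over the tRNA clusters, and IRD2 clr3D stands furthest right over the ribosomal DNA.

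The outer repeats of centromere II, the sequences on which centromeric heterochromatin forms, gave one of the strongest extract signals, and that signal was lower in both strains without Clr3. Over 586 tiles at chrII:1603361-1620070 and chrII:1631961-1645620 the median level was 1.97 in clr3D, 2.48 in IRD2 and 2.04 in IRD2 clr3D, against 2.50 in WT. The median difference was -0.51 in clr3D (SD 0.19), -0.04 in IRD2 (SD 0.19) and -0.47 in IRD2 clr3D (SD 0.24), so that clr3D held 0.70 times and IRD2 clr3D 0.72 times the WT signal relative to the array medians. Of the tiles, 98.5% were below 0 in clr3D, 63.6% in IRD2 and 95.6% in IRD2 clr3D. Both sides gave the same picture, with -0.50 on the left and -0.51 on the right in clr3D. The differences shrank to -0.27 in clr3D and -0.27 in IRD2 clr3D after a loess correction for the tiles' level; these are among the brightest tiles.

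The central domain between the repeats, where the centromeric histone variant CENP-A resides, lay below WT in the median of each mutant. Its 236 tiles (chrII:1620111-1631920) had a median level of 0.30 in clr3D, 0.18 in IRD2, 0.18 in IRD2 clr3D and 0.39 in WT. The median difference was -0.06 in clr3D (SD 0.16), -0.16 in IRD2 (SD 0.29) and -0.15 in IRD2 clr3D (SD 0.19). With a GC correction the value in IRD2 clr3D was -0.37. At 28.0% GC the domain has fewer G and C bases than the arms (36.3%).

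The tRNA gene clusters at the outer borders of centromere II had a higher signal in IRD2 than in the other 3 arrays. Such clusters act as boundaries of the heterochromatin, and their genes are transcribed by RNA polymerase III. Over 156 tiles the median level was -0.13 in clr3D, 0.88 in IRD2 and -0.08 in IRD2 clr3D, against 0.09 in WT. The difference was 0.72 in IRD2 (SD 0.36), a ratio of 1.64, with 99.4% of tiles above 0, against -0.20 in clr3D (SD 0.16) and -0.10 in IRD2 clr3D (SD 0.20). IRD2 clr3D minus IRD2 was -0.88 (SD 0.34), and IRD2 clr3D minus clr3D was 0.05 (SD 0.18). The IRD2 effect was thus 0.72 with Clr3 and 0.05 without it; the additive fit averages these and called 2 centromere bins at 0.27 and 0.33. That the higher signal belongs to a single array was not checked by a second culture.

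Windows around single tRNA genes followed the same pattern along the clusters. Many of these windows overlap and reuse the tiles of the clusters, so they are not separate measurements. In windows of 500 bp on either side of a tRNA gene, the 27 centromeric windows had medians of -0.20 in clr3D, 0.66 in IRD2 and -0.12 in IRD2 clr3D, and 24 of 27 were above 0.3 in IRD2 against 0 of 27 in each of the others. Of 2097 windows of 1 kb that tile chromosome II, 0.286% in clr3D, 3.62% in IRD2 and 9.63% in IRD2 clr3D were above 0.3. The window of the leucine tRNA gene SPBTRNALEU.06, in the left cluster, had levels of -0.97 in clr3D, 0.30 in IRD2, -0.91 in IRD2 clr3D and -0.85 in WT. Its counterpart SPBTRNALEU.07 in the right cluster stood at -0.84 in clr3D, 0.32 in IRD2, -0.73 in IRD2 clr3D and -0.64 in WT. IRD2 stood apart from the other arrays in both. Some of the centromeric windows lie outside the clusters, at the edges of the central domain. Those of SPBTRNAVAL.06 and SPBTRNAVAL.07, inside that domain as bounded here, moved less, at 0.18 and 0.14 in IRD2 minus WT.

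tRNA genes on the arms were above WT in the median of IRD2 clr3D, where the centromeric ones were below it. Their 14 windows had median differences of -0.02 in clr3D, 0.25 in IRD2 and 0.35 in IRD2 clr3D, with 0, 6 and 8 of 14 windows above 0.3. Among the 213 windows of 1 kb on chromosome II with a WT level below -1, 1.88% in clr3D, 17.4% in IRD2 and 56.8% in IRD2 clr3D were above 0.3. The count of 8 of 14 in IRD2 clr3D was thus near the share among low windows, while 6 of 14 in IRD2 was above its share of 17.4%. The largest was at the threonine tRNA gene SPBTRNATHR.07, which stood at -2.58 in clr3D, -2.11 in IRD2 and -1.92 in IRD2 clr3D, against -2.54 in WT. The arm windows had a median WT level of -1.31 and the centromeric ones of -0.03, and low tiles as a class were higher in IRD2 and in IRD2 clr3D.

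The silent mating-type region, which holds silenced copies of the mating-type genes and a stretch related to the centromeric repeats, had the deepest difference among the regions measured in clr3D. Over its 439 contig tiles (18751 to 40710 of the contig) the median level was -0.09 in clr3D, 0.41 in IRD2 and -0.05 in IRD2 clr3D, against 0.79 in WT. The difference was -0.79 in clr3D (SD 0.39), a ratio of 0.58, with 99.3% of tiles below 0. It was -0.30 in IRD2 (SD 1.29) and -0.75 in IRD2 clr3D (SD 1.20). Without the lost tiles the medians over 430 tiles were -0.79, -0.29 and -0.75. IRD2 clr3D minus IRD2 was -0.40 (SD 0.34), and IRD2 clr3D minus clr3D was 0.02. Signal was missing from 19 of the region's tiles in all 4 arrays, as these were not well above background anywhere.

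The difference was not even along the region. In 2 kb stretches clr3D was lowest against WT at 24 to 26 kb of the contig, where the median levels were -0.69 in clr3D, -0.04 in IRD2 and -0.75 in IRD2 clr3D, against 0.42 in WT. The differences there were -1.18, -0.54 and -1.13. IRD2 was lowest 1 stretch to the left, at -0.75. The stretches from 28 to 32 kb were the brightest, with WT levels of 2.68 and 2.76, and differed by -0.64 and -0.47 in clr3D, -0.13 and -0.06 in IRD2 and -0.63 and -0.54 in IRD2 clr3D. Left of the region the median difference over 373 tiles was -0.18 in clr3D, -0.07 in IRD2 and -0.13 in IRD2 clr3D. Single stretches there were as low as parts of the region. At 4 to 6 kb the differences were -0.59, -0.15 and -0.47, and at 16 to 18 kb -0.48, -0.24 and -0.33. By the match of contig to chromosome II tiles, the first of these lies at the expressed cassette mat1 and the second at SPBC23G7.14.

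**Figure D3:**
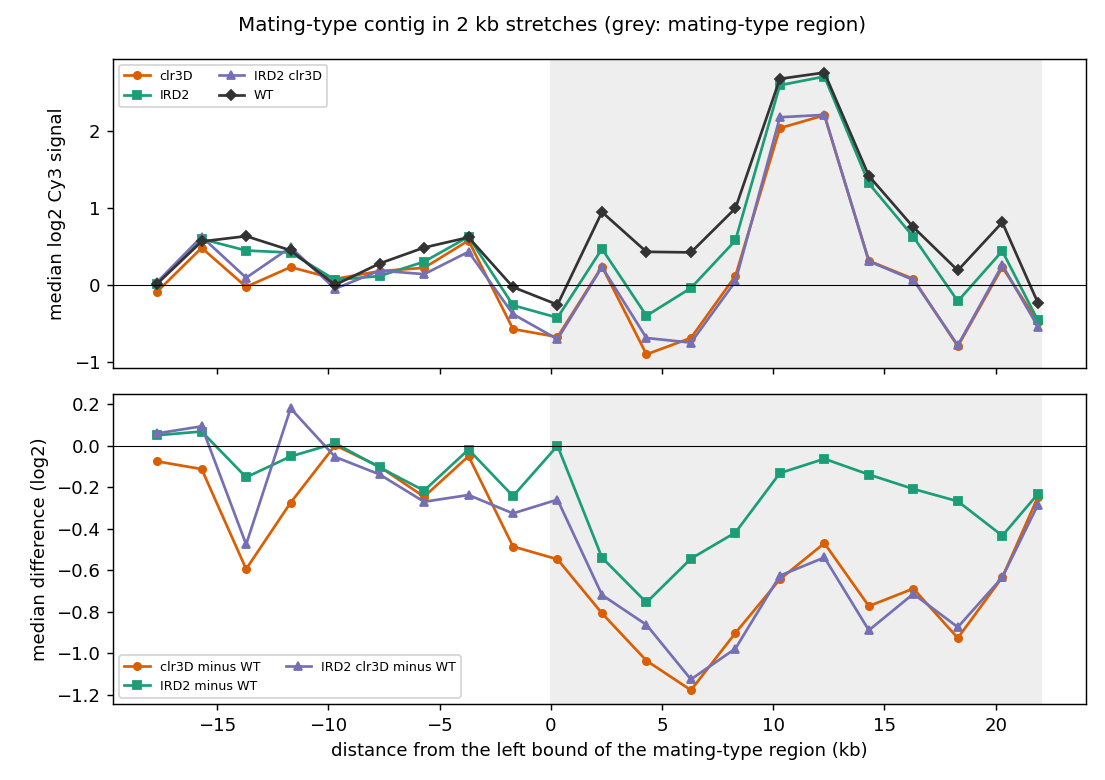
Median log2 Cy3 signal (top) and median difference from WT (bottom) in 2 kb stretches of the contig, against distance in kb from the left bound of the mating-type region (grey); 1 line per array or difference. clr3D and IRD2 clr3D run below IRD2 through most of the grey area, with clr3D at -1.18 at its lowest.

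The mating-type genes and the genes beside the region differed in the same direction. mat1-Mc, the M-specific factor gene at the expressed cassette (chrII:2116282-2116827), stood at 0.44 in clr3D, 0.84 in IRD2 and 0.55 in IRD2 clr3D, against 1.05 in WT. mat3-Mc, its copy at the silent cassette, stood at 0.64 in clr3D, 1.06 in IRD2 and 0.78 in IRD2 clr3D, against 1.20 in WT. The cassettes hold the same sequence, so their tiles cannot tell expressed from silent DNA. Beside the region, SPBC23G7.14 (chrII:2128306-2129932) differed by -0.49 in clr3D, -0.26 in IRD2 and -0.46 in IRD2 clr3D, with all 32 tiles below 0 in clr3D and in IRD2 clr3D. On the other side emc3, a gene of the endoplasmic reticulum membrane complex, differed by -0.21, -0.26 and -0.28 in the same order, and mtd1 and srp40 differed by -0.29 each in IRD2.

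The right end of chromosome II, a subtelomere with its own heterochromatin, was lower in both strains without Clr3. Over 999 tiles (chrII:4491601-4541560) the median level was 0.86 in clr3D, 1.25 in IRD2 and 1.00 in IRD2 clr3D, against 1.25 in WT. The differences were -0.35 (SD 0.20), -0.01 (SD 0.26) and -0.23 (SD 0.30). Tiles that match a single place in the genome gave -0.09 in IRD2 clr3D. The gene tlh2, which encodes a helicase of the RecQ type and has near copies at other chromosome ends, stood at 1.71 in clr3D, 2.12 in IRD2 and 1.60 in IRD2 clr3D, against 2.12 in WT over 119 tiles.

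The outermost 5 kb gave other values than the rest of this end. There the median level was 0.80 in clr3D, 1.46 in IRD2 and 1.07 in IRD2 clr3D, against 1.04 in WT, and the differences were -0.12, 0.43 and 0.14. The next 5 kb inward differed by -0.42 in clr3D, 0.03 in IRD2 and -0.46 in IRD2 clr3D. In clr3D the stretches between 5 and 50 kb from the end lay between -0.46 and -0.28. Genes of this end that were lower in clr3D with every tile on 1 side were SPBPB2B2.15 (-0.50), SPBPB2B2.16C (-0.44), SPBPB2B2.18 (-0.41), ftm7 (-0.40), SPBCPT2R1.01C (-0.37), SPBPB2B2.19C (-0.35) and SPBCPT2R1.03 (-0.34). The same 7 genes ranged between -0.21 and 0.18 in IRD2 and between -0.38 and -0.13 in IRD2 clr3D.

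The ribosomal DNA at the left end of chromosome III was higher in all 3 mutants and most in the double mutant. This repeat array holds the genes of the large ribosomal RNAs in many copies and its copy number is known to drift between cultures of the same strain. Over 461 tiles (chrIII:1-23120) the median level was 2.36 in clr3D, 2.40 in IRD2 and 3.01 in IRD2 clr3D, against 2.00 in WT. The difference was 0.47 in clr3D (SD 0.31), 0.47 in IRD2 (SD 0.26) and 1.09 in IRD2 clr3D (SD 0.39), ratios of 1.39, 1.38 and 2.13. All 238 tiles inside ribosomal RNA genes was above 0 in all 3 differences, with medians of 0.54, 0.54 and 1.14. clr3 deletion went with 0.47 in clr3D minus WT and with 0.61 in IRD2 clr3D minus IRD2. The culture and the genotype cannot be told apart for this array of repeats.

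The 18S and 28S genes had like differences, and those of the spacers were smaller in the single mutants. The 28S gene SPRRNA.47 (69 tiles) stood at 2.74 in clr3D, 2.78 in IRD2 and 3.33 in IRD2 clr3D, against 2.20 in WT. The 18S gene SPRRNA.43 (35 tiles) stood at 2.16, 2.13 and 2.82 in these mutants, against 1.44 in WT. Over 208 tiles outside the genes the differences were 0.19 in clr3D, 0.27 in IRD2 and 0.93 in IRD2 clr3D. Spacer tiles had 30.7% GC and gene tiles 45.4%.

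Past the repeats the sign turned in clr3D between the first and the second kilobase. In the first kilobase after the last annotated ribosomal RNA gene the levels were 2.34 in clr3D, 2.34 in IRD2 and 2.99 in IRD2 clr3D, against 1.91 in WT. In the next kilobase they were 0.43, 0.88 and 0.63, against 0.98 in WT. The difference in clr3D was 0.47 in the first of these stretches and -0.45 in the second. Over the 536 tiles beyond the ribosomal DNA (chrIII:23161-49970), a subtelomeric stretch, the median differences were -0.18 in clr3D, -0.05 in IRD2 and -0.04 in IRD2 clr3D. The clr3D difference was -0.44 in the first 3 kb and 0.04 in the last stretch, 24 to 27 kb away.

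**Figure D4:**
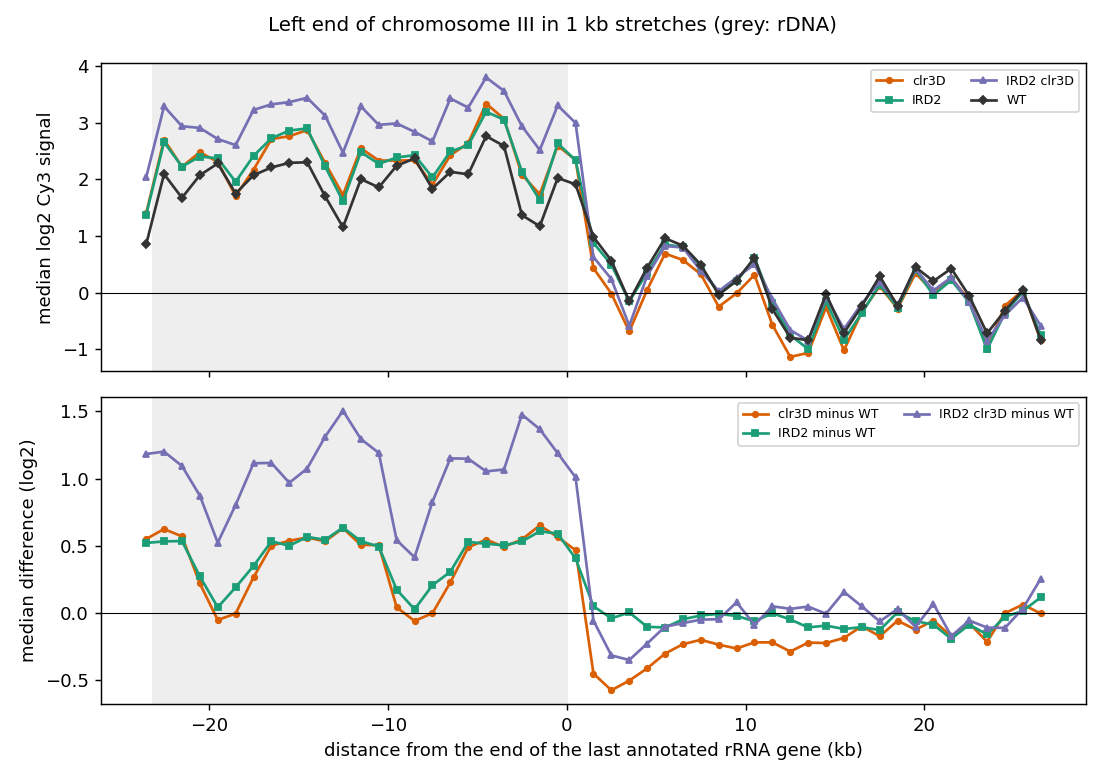
Median log2 Cy3 signal (top) and median difference from WT (bottom) in 1 kb stretches of the left end of chromosome III, against distance in kb from the end of the last annotated ribosomal RNA gene; the ribosomal DNA is grey. IRD2 and IRD2 clr3D run above WT in the grey area, with IRD2 clr3D highest. clr3D runs above WT in most of it and close to WT in some stretches (down to -0.06). To its right clr3D lies above WT in the first kilobase and below WT over most of the rest.

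Retrotransposons and their remnants differed from the tandem repeats. The 158 tiles of Tf2-9 and Tf2-10 had a median level of 2.46 in clr3D, 2.39 in IRD2 and 2.45 in IRD2 clr3D, against 2.52 in WT, and the differences were -0.16 (SD 0.19), -0.16 (SD 0.17) and -0.12 (SD 0.21). After a loess correction for level the value was 0.16 in clr3D and 0.13 in IRD2 clr3D, so no direction is given for these strains. The 20 long terminal repeats on the arms with at least 3 tiles had median differences of 0.00 in clr3D (range -0.13 to 0.19), 0.16 in IRD2 (0.03 to 0.53) and 0.37 in IRD2 clr3D (0.05 to 0.89). All 20 were above 0 in IRD2 and in IRD2 clr3D, beside 55.8% and 57.0% of all arm tiles, whose medians were 0.02 and 0.04. Each of the 20 takes several tiles together, so these shares of single tiles are not a like measure. Arm tiles outside coding sequence had higher medians, 0.06 in IRD2 and 0.19 in IRD2 clr3D. Some of the 20 flank Tf2-9 and Tf2-10, and repeats of like sequence can bind each other's tiles, so they may not be separate readings.

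On the arms, the difference between IRD2 clr3D and WT went with the WT level of a tile. Tiles whose WT level was below -4 were higher by 0.82 in IRD2 clr3D and 0.44 in IRD2 and by 0.03 in clr3D (medians of 195 tiles). Between -4 and -2 the medians were 0.52, 0.26 and 0.02 over 1209 tiles, and between 1 and 2 they were -0.13, -0.03 and -0.03 over 1624 tiles. The classes were made with the WT array that also enters each difference, so part of this slope could come from that choice, which was not tested. The clr3D medians above use the same classes and the same WT array. Base composition moved with the class, with 26.9% GC in the lowest and 40.0% in the class of 1 to 2, and its part in the result was not tested.

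Coding and non-coding DNA separated along the same line. The 21749 arm tiles inside coding sequence (39.0% GC) had median levels of 0.26 in clr3D, 0.25 in IRD2 and 0.19 in IRD2 clr3D, against 0.25 in WT. The 14176 tiles outside it (32.4% GC) stood at -0.61, -0.57 and -0.45, against -0.64 in WT. The median difference of IRD2 clr3D was -0.05 inside and 0.19 outside coding sequence. Runs of at least 6 tiles in which the rolling median over 5 tiles passed 0.5 numbered 102 in IRD2 clr3D, 95 of them on the arms, where their mean GC content was 31.0% and 93.7% had a WT level below -1. In IRD2 there were 43 such runs, 19 on the arms, and in clr3D 13, of which the 1 on the arms lay at hsp16 and the other 12 in the ribosomal DNA and at its edge.

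The arm bins that were furthest above WT in IRD2 and in IRD2 clr3D were in part the same. The bin of nep2, SPBC32H8.15, utp24 and bem46 (chrII:1455011-1460020) stood at -0.87 in clr3D, -0.53 in IRD2 and -0.40 in IRD2 clr3D, against -0.87 in WT. A bin with no gene of at least 5 tiles (chrII:1265011-1270020) stood at -1.02, -0.72 and -0.59, against -1.06 in WT. The bin of gsf1, a flocculin gene, differed by 0.07, 0.32 and 0.36, and the bin of scr1, which encodes a repressor of glucose-repressed genes, by -0.08, 0.25 and 0.39. Each of these bins lay well below the array median, and these comparisons share the WT array.

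Single genes were taken from 890 with at least 5 tiles. In clr3D 13 were lower than WT by more than 0.3 (1.46%) and 3 higher (0.337%). In IRD2 14 were higher (1.57%) and none lower (0 of 890, 0%), and in IRD2 clr3D 22 were higher (2.47%) and 8 lower (0.899%). Among the genes higher in both strains with IRD2 were SPBC16E9.20 (-1.82 in IRD2 and -1.66 in IRD2 clr3D, against -2.34 in WT) and SPBC32H8.15 (-1.07 and -1.16, against -1.71 in WT). After the loess correction for level SPBC32H8.15 differed by 0.52 in IRD2 and 0.24 in IRD2 clr3D, in place of 0.64 and 0.56, so that the second no longer passed 0.3 (0.27 with quantile normalization). SPBC16E9.20 differed by 0.35 and 0.30, in place of 0.52 and 0.68 (0.36 and 0.35 with quantile normalization). gpx1, a glutathione peroxidase gene, differed by 0.00 in clr3D, 0.40 in IRD2 and 0.20 in IRD2 clr3D. Among the genes furthest above WT in IRD2 clr3D were tfb5, a gene of the repair and transcription factor TFIIH (0.43), and mrpl39, a mitochondrial ribosomal protein gene (0.46), both at low levels in WT (-1.26 and -1.54). After a loess correction for level tfb5 was at 0.19 and mrpl39 at 0.20. Among genes with all tiles above WT in clr3D, nmt1 (0.41) and hht2 (0.33) led. They were followed by SPBC8D2.11 (0.25), mbf1, a transcriptional coactivator gene (0.24), isp4 (0.24), tif452, which encodes a cap-binding translation factor (0.23), and byr2, a kinase gene of the mating pathway (0.23).

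Some glycolytic genes were lower in the double mutant. Of the 9 listed, 4 were measured, with medians of 0.17 in clr3D, 0.10 in IRD2 and -0.36 in IRD2 clr3D. Lower by more than 0.3 were 2 of 4 in IRD2 clr3D against 0 of 4 in either single mutant. Over all 890 genes the shares lower were 0.899% in IRD2 clr3D, 1.46% in clr3D and 0% in IRD2. The aldolase gene fba1 (chrII:1690121-1691399) stood at -0.65 in clr3D, -0.72 in IRD2 and -1.38 in IRD2 clr3D, against -0.78 in WT. The enolase gene eno101 (chrII:2202996-2204452) stood at -1.29, -1.66 and -2.16, against -1.56 in WT. In IRD2 clr3D minus WT the differences were -0.60 for fba1 and -0.59 for eno101; both were deeper after a loess correction for level (-0.85 and -0.98) and with quantile normalization (-0.86 and -0.98). Both are heavily transcribed genes of sugar breakdown. Their own levels were below the median in all 4 arrays, and the runs of lower tiles in them had 53.0% and 52.7% GC. The other glycolytic genes measured were pfk1 (-0.07, 0.14 and -0.13 in clr3D, IRD2 and IRD2 clr3D) and tdh1 (0.20, 0.18 and -0.02). fba1, eno101 and the stretch at SPBC23G7.14 and rpp202 were the 3 arm runs lower than WT in IRD2 clr3D.

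Heat shock genes were measured at 4 of 10. hsp16 (chrII:2661939-2662792, 16 tiles) had the lowest level, -2.28 in clr3D, -2.34 in IRD2 and -2.48 in IRD2 clr3D, against -2.83 in WT, with differences of 0.55, 0.49 and 0.35. In IRD2 the difference was 0.28 both with a correction for level and with quantile normalization, under the limit of 0.3. In IRD2 clr3D its sign turned with a correction for level (-0.14) and with quantile normalization (-0.11). The other 3, the chaperone genes mas5, sks2 and aha1, ranged between -0.19 and 0.25 over the 3 mutants. The 25 ribosomal protein genes had medians of 0.09, 0.10 and 0.07, beside 0.02, 0.01 and 0.03 over all 890 genes, and none passed 0.3 in either direction. Of 25 genes of replication and its checkpoint, 8 were measured, with medians of 0.10, 0.02 and 0.01 and none past 0.3. Among them cdc18, which loads the replicative helicase at origins, stood at 0.15 in clr3D, 0.19 in IRD2 and 0.08 in IRD2 clr3D, against -0.02 in WT.

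Genes whose names the plasmid carries were higher in the mutants over short stretches. The plasmid is named for inv1, the invertase gene whose promoter answers to sucrose, and for histone H3.2, which hht2 encodes. The 7 tiles inside the hht2 coding sequence had a median level of 1.92 in clr3D, 1.99 in IRD2 and 1.96 in IRD2 clr3D, against 1.44 in WT. The differences there were 0.44 (SD 0.10), 0.56 (SD 0.15) and 0.58 (SD 0.19). In the kilobase before the coding sequence they were 0.15, 0.21 and 0.20 over 20 tiles, and in the kilobase after it 0.03, 0.17 and 0.24 over 20 tiles. The tile that ends just past the stop codon (chrII:1366411-1366470) stood at 1.86 in clr3D, 1.94 in IRD2 and 1.86 in IRD2 clr3D, against 1.45 in WT, and the next tile, which begins at the last bases of the coding sequence, at -1.39, -1.04 and -1.01, against -1.45 in WT. The stretches were delimited after their values had been seen. Plasmid DNA and other H3 genes can bind such tiles, and their part in the result was not tested.

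The ends of the coding sequences are shown because the tiles on either side of them differ, in level or in the difference from WT. They are taken from the RefSeq gene models of ASM294v3, which places them 900 bp lower than the array does. The lines give the first and last 60 bases of hht2 (chrII:1365158-1365217 and chrII:1365509-1365568, plus strand), the first 60 of inv1 (chrIII:1724306-1724365, plus strand) and the last 60 of nmt1 (chrIII:1839466-1839525, plus strand), with the start or stop codon in capitals.
hht2 start: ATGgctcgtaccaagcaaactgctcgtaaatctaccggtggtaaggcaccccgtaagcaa
hht2 end: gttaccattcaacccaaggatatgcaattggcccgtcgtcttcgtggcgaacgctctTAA
inv1 start: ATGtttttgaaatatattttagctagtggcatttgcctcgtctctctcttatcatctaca
nmt1 end: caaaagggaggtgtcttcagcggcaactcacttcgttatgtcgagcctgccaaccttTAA

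At inv1 the mutants were above WT along the gene, by most in the stretch before the coding sequence. The 15 tiles before it had median levels of 1.32 in clr3D, 1.44 in IRD2 and 1.77 in IRD2 clr3D, against 0.99 in WT. The differences were 0.30 (SD 0.11), 0.46 (SD 0.18) and 0.62 (SD 0.25) there, and 0.15 (SD 0.10), 0.27 (SD 0.14) and 0.22 (SD 0.13) over 33 tiles inside the coding sequence. After it, 7 tiles differed by 0.26 (SD 0.11), 0.39 (SD 0.09) and 0.37 (SD 0.11). The tile that ends at 1725159, before the start codon, differed by 0.14, 0.24 and 0.38, and the first tile wholly inside the coding sequence (1725250 to 1725309) by 0.04, 0.05 and 0.10. These positions rest on a rule for the assembly gaps that the tiles' base composition did not bear out at inv1 and nmt1.

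At nmt1, a gene of thiamine synthesis whose promoter and terminator are common parts of fission yeast vectors, the tiles after the stop codon differed from those inside. The 8 tiles after it had median levels of 1.69 in clr3D, 1.58 in IRD2 and 1.95 in IRD2 clr3D, against 1.16 in WT, with differences of 0.38 (SD 0.21), 0.39 (SD 0.10) and 0.69 (SD 0.22). The 20 tiles inside stood at 0.28, 0.18 and -0.08, against -0.11 in WT, with differences of 0.41 (SD 0.10), 0.30 (SD 0.08) and 0.06 (SD 0.10). The coding sequence was thus higher than WT in both single mutants and close to it in IRD2 clr3D. Whether the plasmid holds nmt1 sequence is not stated in the labels. leu1, a gene of leucine synthesis, differed by 0.20, 0.19 and 0.11, and hhf2, the H4 gene beside hht2, by 0.19, 0.20 and 0.26.

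**Figure D5:**
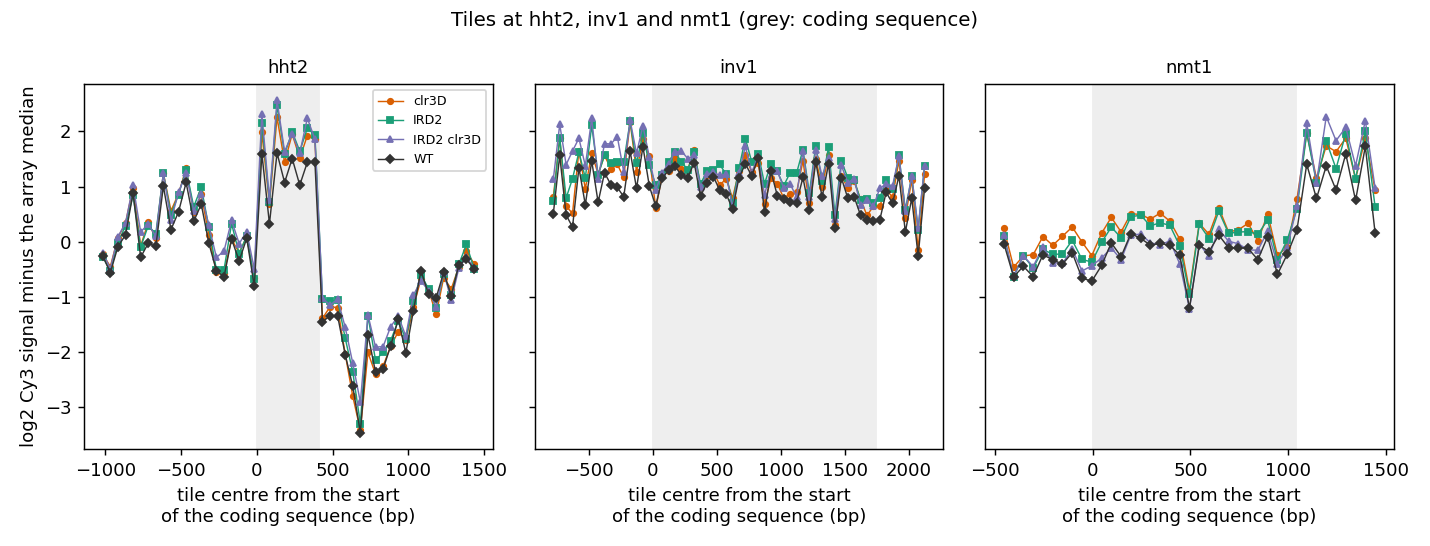
Log2 Cy3 signal minus the array median of single tiles at hht2, inv1 and nmt1, against the distance of the tile centre from the start of the coding sequence (grey) in bp, with 1 line per array. At hht2 all 4 lines are high inside the coding sequence and drop past its end, and WT runs lowest inside it, at a median of 1.44.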

How the data were processed

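Per the file headers, the arrays lay on 1 slide, were scanned in 1 scan and were read by Agilent Feature Extraction in version 12.0.3.1. The authors' processed Cy3 intensity, which is background-subtracted and dye-normalized per the file headers, was taken as deposited for all non-control tiles, without spots marked as outliers (6 to 13 per array). Dye normalization draws on both channels, and the ratio of processed to background-subtracted intensity ran over an array from 0.114 to 0.165 (5th to 95th percentile, lowest and highest array). The genome build and the probe sequences are not given in the sources used here. Genes of ASM294v3 were placed by adding 900 bp per assembly gap (100 bp in the reference, 1000 bp on the array), and GC content was read in windows of 500 bp.

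From the intensities, log2 values minus the array median were averaged in 5 kb bins with at least 20 tiles, over genes with at least 5 tiles, and as medians over regions. With 1 array per genotype, pairs of strains were compared without a test. The terms for clr3 and IRD2 state were tested in an additive fit of the bins (1 residual degree of freedom) in R 4.3.3 by limma 3.58.1, with p-values adjusted by the Benjamini-Hochberg method. Python 3.11.15, numpy 2.4.6, pandas 2.3.3, statsmodels 0.14.6 and matplotlib 3.10.9 were used.

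The samples come from GEO's genotype labels. Named bins were the 5 highest and 5 lowest arm bins, and named genes the 10 highest and 10 lowest among genes with all tiles on 1 side of 0, for each mutant minus WT, besides members of the gene lists. The regions, lists and rules were chosen with earlier results of these data known. The stretches at hht2, inv1 and nmt1, the WT level of -1 for low windows and the limit of 4 log2 units for lost tiles were chosen after seeing the values. Alternatives covered centring, signal column, normalization, corrections for level and GC, summary, bin size, tiles, threshold and variance prior.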

Additional observations from a re-analysis of the deposited data

Results flagged for a closer look

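For 3 genes and 1 short piece of chromosome III, a change in genotype went with differences of opposite sign in the 2 backgrounds; the difference between backgrounds was not tested, since each background has 1 array per genotype. At nmt1 the gene's mean differed by 0.41 in clr3D minus WT and by -0.23 in IRD2 clr3D minus IRD2, and by 0.33 in IRD2 minus WT and -0.30 in IRD2 clr3D minus clr3D. The whole piece of chromosome III around nmt1 differed by 0.30 in IRD2 minus WT and -0.25 in IRD2 clr3D minus clr3D. eno101, the enolase gene, differed by 0.27 in clr3D minus WT and -0.49 in IRD2 clr3D minus IRD2. hsp16, the small heat shock protein gene, differed by 0.49 in IRD2 minus WT and -0.20 in IRD2 clr3D minus clr3D.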

How the results depend on the processing

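No paired analysis was possible because each genotype has 1 array, whose replicate number 1 only names it. Of 156 recomputed region differences, 151 moved by less than the SD between tiles. That limit is wide, up to 1.29 for the mating-type region in IRD2, so staying within it does not show that a value held. The others were Tf2 in clr3D (0.16 with loess on level, 0.033 with quantile normalization) and in IRD2 clr3D (0.13 with loess on level), the central domain in IRD2 clr3D (-0.37 with loess on GC) and the outer repeats in clr3D (-0.27 with loess on level). Within the limit, the outer repeats in IRD2 clr3D went from -0.47 to -0.27 with loess on level. The right end in IRD2 clr3D went from -0.23 to -0.09 with tiles of 1 place. The WT SD over arm bins was 0.59 in 2 kb bins. Of 1551 gene differences, 1489 stayed within the SD between tiles and 60 moved. Turns of sign were counted apart only for main values past 0.3 in size. The 2 so counted were hsp16 in IRD2 clr3D with loess on level (-0.14) and quantile normalization (-0.11). Smaller values also turned, such as Tf2-9 in clr3D, from -0.12 to 0.19 with loess on level. The cause was not tested.

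Counts of bins moved more. Called lower in clr3D were 10 bins of 10 kb, 42 of 2 kb, 7 with loess on level, 11 with quantile normalization, 3 with tiles matching 1 place and 5 past 0.5; called higher was 1 of 2 kb. For IRD2, 1 bin of 10 kb, 28 of 2 kb, 3 with loess on GC, 3 with loess on level, 3 with quantile normalization, 4 with raw signal, 18 past 0.2 and 2 past 0.5 were higher, and 1 of 10 kb, 5 of 2 kb, 0 with tiles of 1 place, 0 with tiles well above background and 4 past 0.2 were lower. For IRD2 clr3D, 1 bin of 10 kb, 58 of 2 kb, 4 with loess on GC, 2 with loess on level, 2 with quantile normalization, 40 past 0.2 and 0 past 0.5 were higher, and 5 of 10 kb, 27 of 2 kb, 19 with loess on GC, 6 with loess on level, 3 with tiles of 1 place, 19 past 0.2 and 3 past 0.5 were lower. Tiles of 1 place leave out most of the repeats.

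In the limma fit, the clr3 term gave higher bins in 12 cases with 2 kb bins, 23 with a variance trend, 29 with loess on GC, 11 with quantile normalization, 9 with raw signal and 0 with tiles of 1 place (35 at an unadjusted p under 0.05), and lower bins in 16 with 10 kb bins, 58 with 2 kb bins, 13 with loess on level and 7 with tiles of 1 place. The IRD2 term gave 84 higher bins of 2 kb, 11 with loess on level, 23 with medians and 22 with quantile normalization, and 14 lower bins with loess on GC, 3 with medians, 13 with quantile normalization, 3 with tiles of 1 place and 2 with tiles well above background. Corrections for GC and for single places gave no value on the contig, nor the latter on ribosomal DNA and Tf2. Precision is limited by the number of arrays.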
